A study of Homo sapiens with 9 samples.

Results

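The transcripts of 10 genes of protein folding in the endoplasmic reticulum (ER) were followed in Gln-deprived HepG2 cells, from a study of how tumor cells respond to the loss of Gln. They comprised 9 genes of ER chaperones and their helpers (HSPA5, HYOU1, HSP90B1, DNAJB9, DNAJB11, DNAJC3, SDF2L1, PDIA4 and HERPUD1) and XBP1, which encodes a transcription factor of the unfolded protein response (UPR). The genes were taken from a table of 22587 genes by symbol, a rule that uses no measured value. All 10 were found, and all 10 were tested, along with the rest of the 11880 genes whose mean reached 0.5 FPKM. HepG2 cells are a long-established human hepatoma line. They were grown in high-glucose DMEM with fetal bovine serum and seeded in dishes. Total RNA was sequenced from 9 libraries, 3 per group, namely Gln added, Gln deprivation for 12 h and Gln deprivation for 24 h. The labels give GlutaMAX, a stable dipeptide that supplies Gln, as the treatment of the cultures with Gln added, whereas the protocol text places it in the Gln-free medium, so the exact composition of the deprivation medium is uncertain. Every group was the same parental line, and no labelled group carries a gene alteration or a further agent. Values are FPKM, fragments per kilobase of gene relative to sequencing depth. They let the levels of different genes be set side by side, while comparisons between libraries also depend on the scaling.

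When unfolded proteins build up in the ER, 3 membrane sensors start the UPR. IRE1, the product of ERN1, cuts XBP1 mRNA so that it is spliced into the form that codes for the active factor. PERK, encoded by EIF2AK3, phosphorylates eIF2alpha, which lowers most translation and raises that of ATF4. ATF6 is moved to the Golgi, cleaved by the proteases of MBTPS1 and MBTPS2, and enters the nucleus. XBP1 and ATF6 are known activators of ER chaperone genes, whereas ATF4 is also raised by amino acid shortage through another eIF2alpha kinase. In hepatocytes these chaperones fold a large output of plasma proteins. Gene-level FPKM do not separate spliced from unspliced XBP1, so no value below measures IRE1 activity.

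ATF6 and XBP1 are known to act through the ER stress response elements. In ERSE the letters CCAAT and CCACG are separated by 9 bases of any kind, and in ERSE-II the letters ATTGG and CCACG by 1. Both were searched on both strands of 35116 RefSeq promoters (GRCh38.p14, 250 bases before to 50 after the start of the transcript), which held 12 promoters of the 10 genes. An exact ERSE lay in 27 promoters (0.0769%), among them those of HSPA5, HSP90B1 and XBP1. An exact ERSE-II lay in 19 promoters (0.0541%), among them those of HYOU1, SDF2L1 and HERPUD1. The matches are shown because they split the 10 genes in a way that can be set beside the measured changes. In the following lines capitals mark the fixed letters of the element, and the sequences read 5′ to 3′ along the strand that carries the match.
HSPA5 ERSE, chr9:125241386-125241414, gene on the minus strand: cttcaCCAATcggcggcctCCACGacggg
XBP1 ERSE, chr22:28800598-28800626, gene on the minus strand: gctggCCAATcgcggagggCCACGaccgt
HSP90B1 distal ERSE, chr12:103930211-103930239, gene on the plus strand: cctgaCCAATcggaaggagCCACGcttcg
HSP90B1 proximal ERSE, chr12:103930316-103930344, opposite to the gene: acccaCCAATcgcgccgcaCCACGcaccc
HYOU1 distal ERSE-II, chr11:119057372-119057398, opposite to the gene: ggcctgggATTGGaCCACGtcacgggg
HYOU1 proximal ERSE-II, chr11:119057266-119057292, opposite to the gene: gcgtactcATTGGaCCACGtcccaggc
SDF2L1 ERSE-II, chr22:21642106-21642132, opposite to the gene: gggttttgATTGGtCCACGcttccgag
HERPUD1 ERSE-II, chr16:56932017-56932043, gene on the plus strand: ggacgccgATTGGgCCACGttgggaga

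Counted from the RefSeq start, the ERSE of XBP1 covered positions -52 to -34, that of HSPA5 -66 to -48, and those of HSP90B1 -89 to -71 and -194 to -176. XBP1 had a further promoter among those searched, and it held no exact match to either element. The ERSE-II matches lay at -79 to -69 and -185 to -175 in HYOU1, at -117 to -107 in HERPUD1 and at -188 to -178 in SDF2L1. GENCODE v44 starts HSP90B1 further upstream than RefSeq does, so its matches fall within the annotated gene, while those of the other 5 genes lie before it. No exact match to either element was found in these windows for DNAJB9, DNAJB11, DNAJC3 or PDIA4. With at most 1 of the 10 fixed letters changed, DNAJC3 was added, and 2.7% of all promoters then held a match, against 0.131% with exact letters. The letters CCAAT and CCACG alone were common, in 34.6% and 38.1% of promoters. The core of another XBP1 element, TGACGTGG, lay in 0.729% of promoters and in HYOU1 alone among the 10 genes, where it overlaps the distal ERSE-II. A composite element known for C/EBP and ATF factors, TTGCATCA, lay in 0.866% of promoters and among these genes only in HERPUD1, at -176 to -169:
HERPUD1 composite, chr16:56931958-56931981, element in capitals: gcggcgggTTGCATCAgcccgtgc

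Between 29618761 and 36258388 fragments per library fell on genes, and between 419 (SDF2L1) and 52612 (HSPA5) fragments lay behind a value of the 10 genes. The median coefficient of variation between replicates, over genes above 10 FPKM, was 2.84% in the group with Gln added, 4.03% in that of 12 h and 4.37% in that of 24 h. All 8 hepatocyte markers averaged at least 1 FPKM, and ALB went from 3831 FPKM to 3350 at 12 h and 3342 at 24 h. The 8 markers summed to 7471 to 7569 FPKM per library with Gln added, 6551 to 6623 at 12 h and 6331 to 6662 at 24 h. None of the 4 fibroblast or 4 endothelial markers with a row in the table averaged 1 FPKM. Of the leukocyte markers, LYZ had means of 742, 539 and 767 FPKM in the same order and CD68 of 36.1, 29.6 and 22.9 FPKM, while the defining markers PTPRC and CD3E had no row. Of the hepatocyte markers, 6 of 8 had lower means at both times, whereas APOB was at 821, 858 and 825 FPKM and HNF4A at 56.0, 59.7 and 52.7 FPKM. The part of these marker levels in the changes described below was not tested. Nothing in the labels says how the replicate cultures of a group were separated, so p-values measure the spread between these libraries.

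Of the 10 genes, 8 were lower and 1 was higher at 12 h than with Gln added, and DNAJB9 did not pass the test (limma on log2(FPKM + 0.1), adjusted p under 0.05 over all tested genes). Among all tested genes 31.0% were lower and 29.1% higher in the same comparison. At 24 h, 6 of the 10 were lower, 3 were higher and DNAJC3 did not pass, where 31.7% of all tested genes were lower and 33.0% higher. The median log2 fold change of the 10 genes was -0.31 at 12 h and -0.19 at 24 h, beside -0.02 and 0.01 over all tested genes. In 9 of the 10 genes the libraries of the 2 groups did not overlap at 12 h, and the same number did not overlap at 24 h, against 67.2% and 69.9% of all tested genes. Because most tested genes passed or separated, a call alone was common in these data, and the size of a change says more. Both comparisons rest on the same 3 libraries with Gln added. The labels give no harvest time for those libraries, and neither time has a control group of its own. The length of deprivation and the time in culture therefore cannot be told apart. In bulk RNA, fewer cells of a kind and less RNA per cell cannot be told apart.

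**Figure D1:**
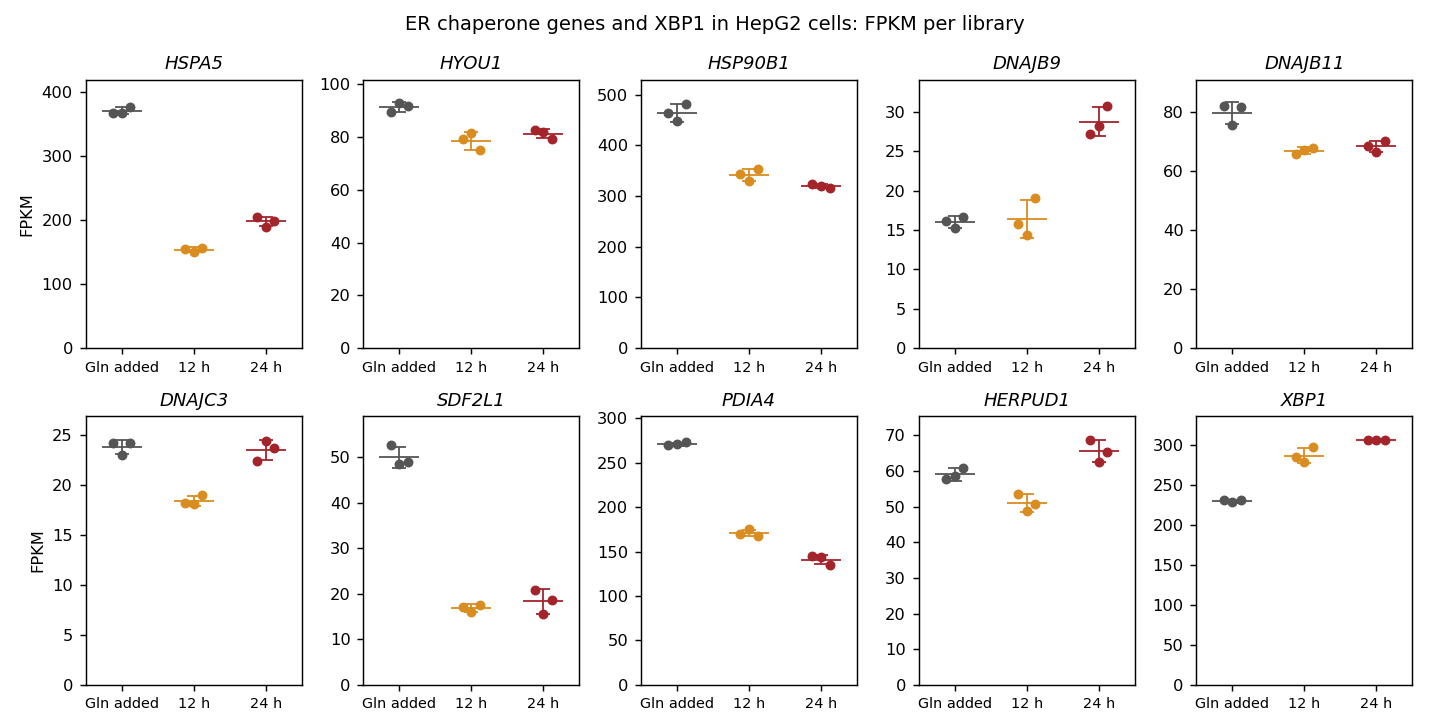
FPKM of each of the 10 genes (vertical axes, from 0) in the 3 libraries with Gln added (grey), after 12 h (orange) and after 24 h (red) of Gln deprivation; points are libraries, long bars the mean and short bars the SD. HSPA5, HSP90B1, DNAJB11, HYOU1, SDF2L1 and PDIA4 were lower at both times, DNAJC3 and HERPUD1 were lowest at 12 h, DNAJB9 was raised at 24 h and XBP1 at both times.

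HSPA5 encodes BiP, the main Hsp70 chaperone of the ER lumen, which also holds the UPR sensors inactive when it is not occupied by unfolded proteins. In GENCODE v44 (GRCh38), which gives the position of each gene here, it lies on the minus strand of chromosome 9 from 125234853 to 125241382. With Gln added its libraries held 368, 367 and 377 FPKM. At 12 h of Gln deprivation they held 155, 150 and 157 FPKM, and at 24 h 205, 190 and 199 FPKM. The 3 groups were fully separate, with 12 h lowest and 24 h between. The mean fell from 371 ± 5.41 FPKM (SD, n = 3) to 154 ± 3.33 at 12 h, 2.41 times lower, and was 198 ± 7.48 at 24 h, 1.87 times lower. The log2 fold change was -1.27 at 12 h (95% confidence interval -1.35 to -1.19, adjusted p = 8.95e-10 from limma) and -0.90 at 24 h (-0.98 to -0.83, adjusted p = 6.25e-09 from limma). Only 95 tested genes, 0.8%, had a lower log2 fold change at 12 h, and 442 (3.72%) had one at 24 h. In the order of all genes by FPKM, HSPA5 stood at place 122 with Gln added, 306 after 12 h and 214 after 24 h.

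HYOU1 encodes an Hsp70-like protein that exchanges the nucleotide of BiP and so lets it release its clients. It lies on chromosome 11 from 119044188 to 119057227 on the minus strand. Its FPKM were 89.3, 92.9 and 91.9 with Gln added, 79.1, 81.4 and 74.9 at 12 h, and 82.7, 81.8 and 79.3 at 24 h. All Gln-deprived libraries were below those with Gln added, and the 2 times overlapped. The decrease was small beside that of its partner HSPA5, with a log2 fold change of -0.22 at 12 h (-0.31 to -0.14, adjusted p = 0.000549 from limma) and -0.17 at 24 h (-0.25 to -0.08, adjusted p = 0.00266 from limma). An opposite-strand gene overlaps 9.77% of the exonic bases of HYOU1.

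HSP90B1 encodes GRP94, the Hsp90 chaperone of the ER, and was the most abundant of the 10 transcripts in every group. The gene lies on chromosome 12 from 103930107 to 103953931 on the plus strand. It was measured at 463, 448 and 482 FPKM with Gln added, at 344, 330 and 353 FPKM at 12 h, and at 324, 320 and 316 FPKM at 24 h. The Gln-deprived libraries were all lower, and those of 24 h lay below those of 12 h. On the log2 scale it changed by -0.44 at 12 h (SE 0.0378, limma's adjusted p = 3.39e-06) and by -0.54 at 24 h (limma's adjusted p = 5.17e-07), ratios of means of 0.737 and 0.69. Exons of opposite-strand genes cover 6.95% of its exonic bases and a microRNA on the same strand 1.0%.

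Of the J-domain proteins, which hand clients to BiP and stimulate its ATPase, each had a course of its own. DNAJB11 (ERdj3), which is also secreted, lies on chromosome 3 from 186567403 to 186585800 on the plus strand. Its libraries held 82.1, 75.5 and 81.6 FPKM with Gln added, 65.8, 67.3 and 67.9 at 12 h, and 68.4, 66.5 and 70.3 at 24 h. It was lower at both times without overlap, by -0.25 (adjusted p = 0.000332 from limma) and -0.22 (adjusted p = 0.000656 from limma) on the log2 scale, and the 2 times overlapped. Of its exonic bases, 9.34% also belong to opposite-strand genes and 4.81% to other genes on the same strand.

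DNAJC3 (p58IPK), a co-chaperone of BiP that is also known to inhibit PERK, lies on chromosome 13 from 95677139 to 95794988 on the plus strand. It was at 24.2, 23.0 and 24.2 FPKM with Gln added, fell to 18.2, 18.1 and 19.0 FPKM at 12 h, and was at 22.4, 24.4 and 23.7 FPKM at 24 h. The 12 h libraries were below all others, while those of 24 h overlapped those with Gln added. The log2 fold change was -0.37 at 12 h (SE 0.0438, limma's adjusted p = 3.79e-05) and -0.02 at 24 h (-0.12 to 0.08, adjusted p = 0.727 from limma).

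DNAJB9 (ERdj4) is a co-chaperone that is known to be among the strongest XBP1 targets and to hold IRE1 in its inactive complex with BiP. The gene lies on chromosome 7 from 108569867 to 108574850 on the plus strand. Its FPKM were 16.1, 15.2 and 16.7 with Gln added, 15.8, 14.4 and 19.1 at 12 h, and 27.2, 28.2 and 30.7 at 24 h. At 12 h the libraries straddled those with Gln added, with replicate 3 above and replicate 2 below all of them. At 24 h every library was far above both other groups. The log2 fold change was 0.03 at 12 h (-0.17 to 0.23, adjusted p = 0.801 from limma) and 0.84 at 24 h (0.64 to 1.04, adjusted p = 1.33e-05 from limma), a ratio of means of 1.79. Of all tested genes 569 (4.79%) had a higher log2 fold change at 24 h. Its direction at 12 h rested on single libraries, at -0.08 without replicate 3 of the 12 h group and -0.01 without replicate 2 with Gln added.

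SDF2L1, a small partner of the DNAJB11 and BiP complex that keeps unfolded proteins from aggregating, showed the lowest fold change of the 10 at both times. It lies on chromosome 22 from 21642302 to 21644299 on the plus strand. Its libraries held 52.7, 48.5 and 49.0 FPKM with Gln added, 17.1, 15.9 and 17.6 at 12 h, and 20.9, 15.6 and 18.6 at 24 h. Each Gln-deprived library was far below any library with Gln added, and the 2 times overlapped. The mean was 16.9 ± 0.855 FPKM at 12 h and 18.3 ± 2.65 at 24 h (SD, n = 3), 2.96 and 2.73 times lower than with Gln added. The log2 fold change was -1.56 at 12 h (-1.76 to -1.36, adjusted p = 1.6e-07 from limma) and -1.45 at 24 h (adjusted p = 1.74e-07 from limma), below which 40 (0.337%) and 89 (0.749%) of all tested genes lay.

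PDIA4 (ERp72), a protein disulfide isomerase that forms and reshuffles disulfide bonds, lies on chromosome 7 from 149003062 to 149028662 on the minus strand. It was at 270, 271 and 273 FPKM with Gln added, 170, 175 and 168 FPKM at 12 h, and 145, 144 and 135 FPKM at 24 h. The groups formed 3 separate steps, each lower than the one before. The log2 fold change went from -0.67 at 12 h (SE 0.0352, limma's adjusted p = 9.41e-08) to -0.94 at 24 h (adjusted p = 4.5e-09 from limma).

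HERPUD1 encodes a membrane protein that helps assemble the ER-associated degradation machinery, which returns misfolded proteins to the cytosol. It lies on chromosome 16 from 56932142 to 56944864 on the plus strand. Its FPKM were 57.6, 58.5 and 60.9 with Gln added, 53.6, 48.7 and 50.6 at 12 h, and 68.7, 62.6 and 65.3 at 24 h. The 12 h libraries were all below and the 24 h libraries all above those with Gln added. It fell by 0.21 on the log2 scale at 12 h (adjusted p = 0.00271 from limma) and rose by 0.15 at 24 h (0.05 to 0.26, adjusted p = 0.0162 from limma). The rise at 24 h no longer passed without replicate 1 with Gln added (0.13, adjusted p = 0.062 from limma) or without replicate 1 of 24 h (0.12, adjusted p = 0.0548 from limma).

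XBP1 lies on chromosome 22 from 28794555 to 28800597 on the minus strand. It was at 231, 229 and 232 FPKM with Gln added, at 285, 279 and 298 FPKM at 12 h, and at 307 FPKM in each of the 3 libraries at 24 h. The 3 groups did not overlap, and the gene rose at 12 h while 8 of the other 9 genes fell. Its mean went from 230 ± 1.94 to 287 ± 9.65 and 307 ± 0.35 FPKM (SD, n = 3). The log2 fold change was 0.32 at 12 h (SE 0.0319, limma's adjusted p = 1.08e-05) and 0.41 at 24 h (adjusted p = 1.06e-06 from limma), ratios of means of 1.25 and 1.33.

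Where 2 groups of 3 libraries did not overlap, the two-sided exact permutation test gave p = 0.1, the smallest it allows. It gave p = 0.9 for DNAJB9 at 12 h and p = 0.7 for DNAJC3 at 24 h in exact permutation.

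**Figure D2:**
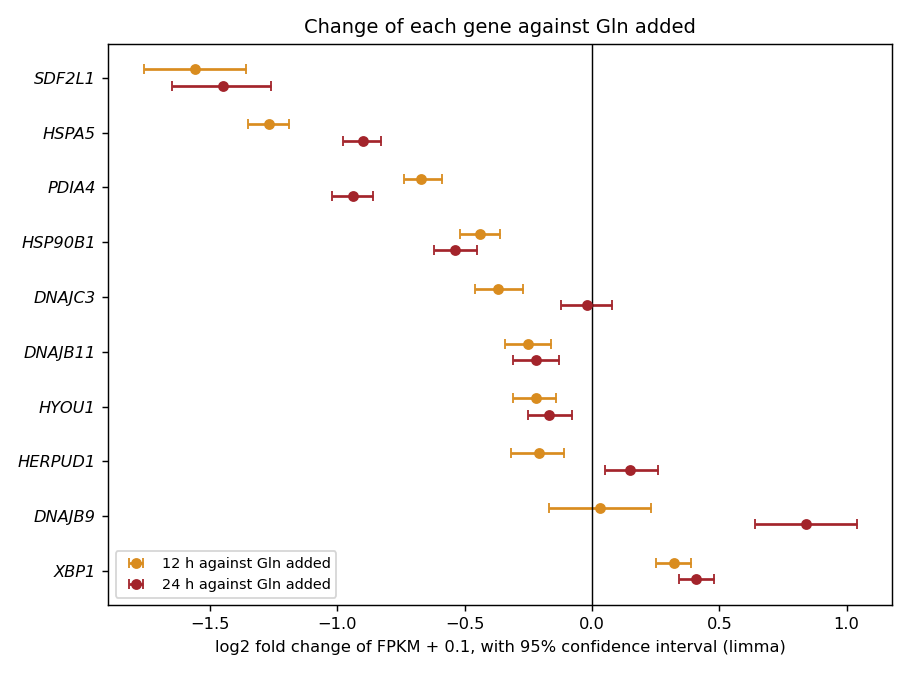
Log2 fold change of FPKM + 0.1 (horizontal axis) of each gene against Gln added at 12 h (orange) and 24 h (red), with 95% confidence intervals from limma; 0 is no change. SDF2L1 and HSPA5 lay furthest to the left at 12 h (-1.56 and -1.27), and the intervals of DNAJB9 at 12 h and DNAJC3 at 24 h crossed 0.

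The 2 times of deprivation were also compared directly, 24 h against 12 h. Without a control group for each time, this difference can hold the time in culture as well as the length of deprivation. Of the 10 genes, 4 were higher at 24 h, 1 was lower and 5 did not pass, against 9.57% higher and 10.5% lower of all tested genes. The libraries of the 2 times did not overlap in 7 genes, against 34.4% of all tested genes. DNAJB9 had the largest difference, 0.81 on the log2 scale (0.61 to 1.01, adjusted p = 0.000175 from limma), and only 85 tested genes (0.715%) had a higher one. HSPA5, HERPUD1 and DNAJC3 were higher by similar amounts, 0.36 (adjusted p = 8.24e-05 from limma), 0.36 (adjusted p = 0.000472 from limma) and 0.35 (adjusted p = 0.000383 from limma). PDIA4 alone was lower, by -0.27 (-0.35 to -0.20, adjusted p = 0.000429 from limma).

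The other 5 genes did not pass between the times. XBP1 had a log2 difference of 0.10 (0.02 to 0.17, adjusted p = 0.0596 from limma) and HSP90B1 of -0.10 (-0.18 to -0.01, adjusted p = 0.1 from limma), and neither gene overlapped between the times. The intervals of HYOU1 (0.05, from -0.03 to 0.14), DNAJB11 (0.03, from -0.06 to 0.12) and SDF2L1 (0.11, from -0.09 to 0.30) included 0. In exact permutation of 3 libraries against 3 these 3 genes gave p = 0.2, 0.4 and 0.5. The median over the 10 genes was 0.10, beside 0.02 over all tested genes.

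The unequal changes altered the makeup of the group within each library, a measure that does not depend on the scaling between libraries. XBP1 was at 0.616 to 0.626 of the FPKM of HSPA5 with Gln added, at 1.84 to 1.90 at 12 h and at 1.49 to 1.61 at 24 h. HSPA5 was at 0.783 to 0.821 of HSP90B1 with Gln added, 0.445 to 0.456 at 12 h and 0.595 to 0.634 at 24 h. The ratio of DNAJB9 to HSPA5 rose at each step, from 0.0415 to 0.0442, through 0.0955 to 0.122, to 0.132 to 0.155. None of these 3 ratios overlapped between any of the groups.

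SDF2L1 and DNAJB11, whose products work in 1 complex, also parted, with a ratio of 0.6 to 0.642 with Gln added, 0.237 to 0.261 at 12 h and 0.234 to 0.305 at 24 h. The 10 transcripts together held 1628 to 1689 FPKM in a library with Gln added, 1180 to 1225 FPKM after 12 h and 1240 to 1272 FPKM after 24 h. Of this sum HSPA5 took 22.4%, then 12.8% and 15.8%, whereas XBP1 took 13.9%, 23.9% and 24.5%. The share of HSP90B1 was 28.0%, 28.4% and 25.6%, so the largest transcript moved with the sum at 12 h.

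**Figure D3:**
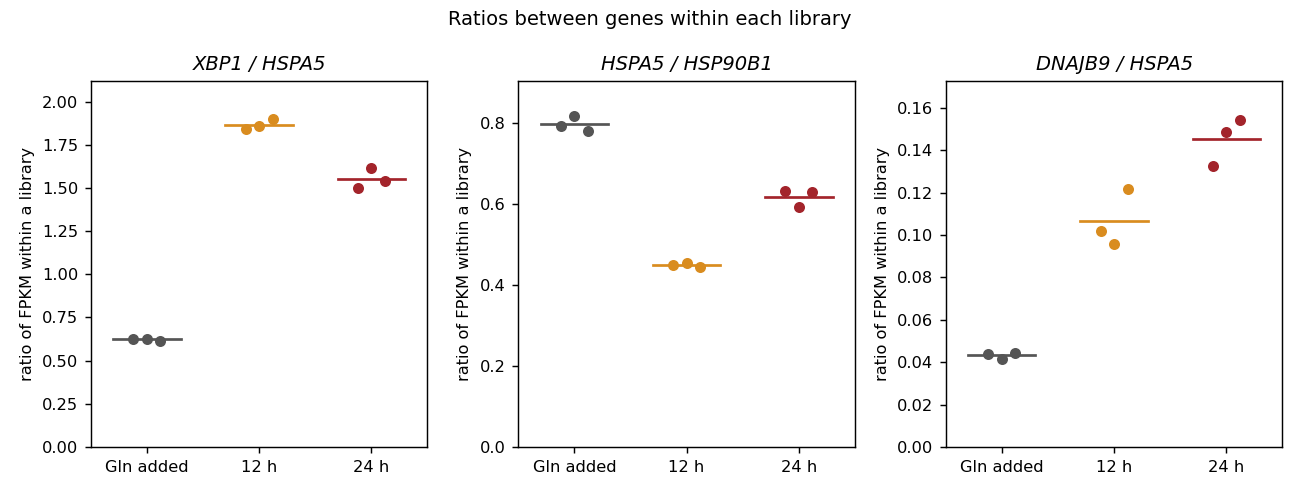
Ratios of FPKM between 2 genes within the same library (vertical axes, from 0), with 3 libraries per group as points and the mean as a line. XBP1 over HSPA5 averaged 0.621, 1.86 and 1.55 from left to right, and none of the 3 ratios overlapped between groups.

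By level, the order with Gln added was HSP90B1, HSPA5, PDIA4, XBP1, HYOU1, DNAJB11, HERPUD1, SDF2L1, DNAJC3 and DNAJB9, and no neighbours overlapped. At 12 h XBP1 and PDIA4 stood above HSPA5, below HSP90B1, and SDF2L1 fell behind DNAJC3 to overlap with DNAJB9. At 24 h HSPA5 was again above PDIA4, and the 3 lowest were DNAJB9, DNAJC3 and SDF2L1 in falling order. At that time only DNAJB11 and HERPUD1 overlapped among neighbours.

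Over the 9 libraries, the log2 levels of HSPA5 and SDF2L1 had a Pearson r of 0.97, PDIA4 and HSP90B1 of 0.98, and XBP1 and PDIA4 of -0.99. HSPA5 and DNAJC3 had 0.73, and HERPUD1 had 0.79 with DNAJC3 and 0.74 with DNAJB9. These coefficients describe libraries in 3 groups, where all genes of a library share its depth and its group, and are no test. Among 7286 genes of at least 5 FPKM, the patterns most like HSPA5 were those of FGA (r = 0.998), MANF (0.996), HSPA8 (0.996), SEC23B (0.994) and PKM (0.992). MANF, another ER protein raised by the UPR, and HSPA8, the constitutive Hsp70 of the cytosol, had log2 fold changes of -1.26 and -1.01 at 12 h and -0.91 and -0.66 at 24 h. FGA, a fibrinogen chain secreted by hepatocytes, had -0.47 and -0.36. Most like XBP1 were KAT6A (0.996) and SNX9, RIOK3, ZFAND5 and CALCOCO2 (0.995 each), with log2 fold changes of 0.30 to 0.64 at 12 h and 0.44 to 0.80 at 24 h.

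Set beside the promoter matches shown above, the 6 genes with an exact ERSE or ERSE-II included the 2 lowest log2 fold changes at 12 h (SDF2L1 and HSPA5) and also XBP1, the only one of the 10 that rose then. HYOU1 has the most exact ERSE-II matches of the 10 and changed by -0.22. Of the 4 genes with no exact match in the window, DNAJB9 rose at 24 h and PDIA4 was the lowest of them at both times. The same exact elements were found near 38 other genes, a set looked at after the values of the 10 genes were seen, and 24 of these were tested. At 12 h 15 of the 24 were lower, 4 higher and 5 did not pass. At 24 h 14 were lower, 5 higher and 5 did not pass. Over all tested genes 31.0% were lower and 29.1% higher at 12 h, and 31.7% lower and 33.0% higher at 24 h. Genes with the letters thus went in either direction, with more of them lower than higher. Whether they differed from other genes was not tested, nor whether any factor bound the letters in these cells.

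Other genes of the pathway were counted in lists drawn from general knowledge, but with earlier results of these data known. Beside the counts of each list stand the shares of all tested genes. These were 31.0% lower and 29.1% higher at 12 h, and 31.7% lower and 33.0% higher at 24 h. Of the 14 tested among 15 other ER chaperones, 10 were lower and 3 higher at 12 h (median log2 fold change -0.22), and 7 were lower and 5 higher at 24 h (median -0.11). CALR, the calcium-binding lectin chaperone calreticulin, fell from a mean of 828 FPKM to 524 and 395, a log2 fold change of -0.66 and -1.07. Its membrane partner CANX had a smaller change, -0.25 and -0.20. CRELD2, known as a UPR target, fell from 24.2 FPKM to 10.5 and 8.39 (-1.20 and -1.52). At the other end HSPA13, an Hsp70 relative of the ER membrane, rose to 26.1 FPKM at 12 h and 32.3 FPKM at 24 h (0.38 and 0.68). FKBP2 was not tested, at a mean of 0.0234 FPKM and below.

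Among 14 other disulfide isomerases and oxidases, 8 were lower and 1 was higher at 12 h (median -0.28), and 7 were lower and 2 higher at 24 h (median -0.21). PDIA6, P4HB and PDIA3, the abundant isomerases, were all lower, with log2 fold changes of -0.52, -0.30 and -0.40 at 12 h and -0.70, -0.35 and -0.56 at 24 h. ERO1A, the oxidase that recharges them, was lower by -0.29 and -0.17, whereas ERO1B (1.47, 1.29 and 1.52 FPKM) did not pass at either time. QSOX1, a sulfhydryl oxidase, had 0.09 at 12 h, which did not pass, and rose by 0.45 at 24 h.

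ER-associated degradation, the list closest to HERPUD1, had genes in both directions. Of 19 tested genes (DERL3 was too low), 6 were higher and 7 lower at 12 h (median -0.01). These counts lay near the shares over all tested genes, 29.1% and 31.0%. At 24 h 10 were higher and 4 lower (median 0.13), beside 33.0% and 31.7% of all tested genes. The ubiquitin ligase SYVN1 went from 18.5 FPKM to 19.2 and 22.5, and passed at 24 h (0.28) but not at 12 h (0.05). Its partner SEL1L was lower at both times (-0.19 and -0.17). EDEM1, a lectin that extracts misfolded glycoproteins and a known XBP1 target, was lower at 12 h (-0.09, adjusted p = 0.0489 from limma) and higher at 24 h (0.16, adjusted p = 0.00209 from limma). At 24 h SELENOS (0.68) was the highest and UFD1 (-0.65) the lowest of the list, both parts of the extraction machinery. HERPUD2, the paralog of HERPUD1, was higher at both times (0.72 and 0.67), named after its values were seen.

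The translocon and signal peptidase, through which new proteins enter the ER and lose their signal peptides, had 12 of 17 genes lower and 1 higher at 12 h (median -0.37) and 11 lower and 4 higher at 24 h (median -0.16). SEC61A1 and SEC61B, subunits of the channel, were at -0.37 and -0.54 at 12 h and at -0.14 and -0.30 at 24 h. TRAM1 was the lowest of the list at 24 h (-0.39), and SEC62 the highest (0.29). Between the times 7 of the 17 were higher at 24 h, against 9.57% of all tested genes. The count of 7 became 4 when replicate 3 of 24 h was left out.

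Upstream of the chaperones, the sensors differed. ERN1, which encodes IRE1, averaged 1.95 ± 0.0437 FPKM with Gln added (SD, n = 3). It rose to 8.44 ± 0.131 FPKM at 12 h, 4.33 times that level, and to 9.76 ± 0.0992 FPKM at 24 h, 5.01 times. Its log2 fold change was 2.06 (adjusted p = 1.73e-10 from limma) and 2.27 (adjusted p = 1.01e-10 from limma). EIF2AK3, which encodes PERK, was at 8.69, 7.88 and 9.42 FPKM and did not pass at either time. ATF6 rose by 0.34 and 0.35, and MBTPS1, whose protease cleaves ATF6, by 0.43 and 0.57. CREB3, a factor of the same membrane-bound kind, was lower by -0.42 and -0.17. Over the list of 9 sensors and proteases, 4 were higher and 1 lower at 12 h, and 4 were higher and 2 lower at 24 h.

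The list named for the PERK and ATF4 arm moved the other way from the chaperones. No value here measures PERK activity, and which eIF2alpha kinase was involved was not tested. Of 11 tested genes, 10 were higher at both times, with median log2 fold changes of 1.59 and 1.54. Over all tested genes 29.1% were higher at 12 h and 33.0% at 24 h. The paper had reported TRIB3, DDIT3, SESN2, CEBPB and ASNS of this list as differentially expressed from these cells and an earlier dataset. For Gln withdrawal it described the first 3 as raised, CEBPB as lowered and ASNS as without change. In the values used here CEBPB was higher at 12 h and 24 h (1.44 and 1.48), and so was ASNS (3.06 and 2.74). The source of this difference in direction was not tested. Their calls here are therefore no independent result. ATF4 rose from a mean of 41.9 FPKM to 77.4 and 75.5, and its target PPP1R15A, which directs the removal of phosphate from eIF2alpha, from 6.59 to 28.2 and 29.7 FPKM. DDIT3, TRIB3 and ASNS were at 1.72, 2.02 and 3.06 at 12 h on the log2 scale. ASNS rested on 14 to 218 fragments and shares exons with a readthrough gene, so its level is uncertain. ATF5 was the exception, at 0.02 at 12 h, which did not pass, and -0.21 at 24 h. CHAC1 was too low to be tested.

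Chaperones outside the ER were set beside them for comparison. Of 21 genes of the cytosol and mitochondria, 14 were lower and 5 higher at 12 h (median -0.23), and 12 were lower and 5 higher at 24 h (median -0.29). HSPA8 fell from 810 to 403 and 513 FPKM, and HSP90AA1, the inducible cytosolic Hsp90, from 593 to 304 and 330 FPKM. The small heat shock gene HSPB1 had the lowest value at 24 h, -1.21. In the mitochondria HSPD1 was lower (-0.23 and -0.42), while HSPA9, the mitochondrial Hsp70, and the protease LONP1 were higher, by 0.53 and 0.70 at 12 h and 0.31 and 0.66 at 24 h. By these counts lower transcripts of chaperones were found in the cytosol as well as in the ER. Whether the lists differed from each other was not tested.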

How the data were processed

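RNA-seq covered 9 HepG2 libraries, 3 in each of the groups Gln added, 12 h and 24 h of Gln deprivation. The methods state alignment to GRCh38 with STAR. The submitters' processing notes name HTSeq and R 3.2.0. Values were deposited as FPKM, without any further scaling being stated by the authors. The labels and the methods name different library kits, so the use of strand in counting is not given in the sources used here. FPKM of genes that overlap others are therefore uncertain.

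Differences were tested on log2(FPKM + 0.1) with limma 3.58.1 under R 4.3.3, using lmFit and eBayes with its trend option. The 11880 genes whose mean reached 0.5 FPKM entered, the 3 groups shared 1 fit, and p-values were adjusted by Benjamini-Hochberg over all genes tested. A gene was called at an adjusted p under 0.05. Fold changes on this scale understate the change of genes near 0.1 FPKM. Each of the 10 genes was also given a two-sided exact permutation test (3 libraries against 3). FPKM were whole multiples of 1 fragment's worth for 100% of the 22587 genes (tolerance the larger of 0.003 fragments and a tiny share of the value), which gave the fragments per gene and library. All replicate pairs differed beyond sampling noise.

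Named were all 10 genes, a fixed set of pathway genes with the highest and lowest of each list at 24 h, and the 5 genes of at least 5 FPKM most correlated with HSPA5 and with XBP1. The genes and lists were chosen with earlier results of these data known. A listed cell type marker is not reported here. Promoter sequences are RefSeq's on GRCh38.p14, and gene positions GENCODE v44's. Alternatives were pseudocounts of 0.01 and 1, a filter at 1 FPKM or none, equal FPKM totals, median-ratio scaling, only the groups compared, the replicate number as a block, no trend, voom on the recovered fragments, and each library left out in turn. Plots used matplotlib 3.10.9 (Python 3.11.15).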

Additional observations from a re-analysis of the deposited data

Results flagged for a closer look

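Groups of 3 libraries were too small for a check of single outlying libraries. Of 56 genes named, 29 differed between the groups of 12 h and 24 h of Gln deprivation, and 5 of these were among the 10 genes. They were tested as 24 h against 12 h with limma at an adjusted p under 0.05. Over all tested genes 9.57% were higher and 10.5% lower. The 56 include list extremes and nearest patterns picked from these same values, so their count cannot be weighed against that share. The log2 difference was 0.81 for DNAJB9, 0.36 for HSPA5, 0.36 for HERPUD1, 0.35 for DNAJC3 and -0.27 for PDIA4.

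Among the other ER genes, MANF (0.36), EDEM1 (0.26), SYVN1 (0.23), SEC61B (0.23) and SEC61A1 (0.22) were higher at 24 h than at 12 h, and CALR (-0.41), CRELD2 (-0.32), PDIA6 (-0.18) and PDIA3 (-0.16) were lower. Of the sensors and proteases, EIF2AK3 (0.26), CREB3 (0.25), ERN1 (0.21) and MBTPS1 (0.14) were higher, and ATF5 of the ATF4 arm was lower (-0.23). HSPA8 was higher (0.35), and HSPB1 (-0.34), HSPA9 (-0.21) and HSPD1 (-0.19) were lower. Of the genes closest in pattern to HSPA5, FGA (0.11), SEC23B (0.11) and PKM (0.15) were higher at 24 h, as were SNX9 (0.18), RIOK3 (0.16) and CALCOCO2 (0.16) of those closest to XBP1. No cause of these differences was tested.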

How the results depend on the processing

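Of 480 values of the 10 genes' fold changes under the alternatives, 469 kept their direction and their side of the threshold. The direction was reversed for DNAJB9 at 12 h without replicate 2 with Gln added (-0.01) or replicate 3 of 12 h (-0.08), and for DNAJC3 at 24 h with equal FPKM totals (0.03) or without replicate 1 of 24 h (0.02; range -0.05 to 0.02 over the libraries left out). None of these values passed the test. HERPUD1 at 24 h lost its call without replicate 1 with Gln added (0.13, adjusted p = 0.062 from limma) or replicate 1 of 24 h (0.12, adjusted p = 0.0548). Between the times, XBP1 passed with equal FPKM totals (0.11, adjusted p = 0.0439), with voom (adjusted p = 0.0452) and without replicate 3 of 12 h (0.12, adjusted p = 0.0215), and SDF2L1 passed without replicate 2 of 24 h (0.22, adjusted p = 0.0446).

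Same-numbered libraries of the groups had correlations of their deviations from -0.136 to 0.283, so the numbers were not taken as pairs. With the number as a replicate block, XBP1 passed between the times (0.10, adjusted p = 0.0475), no other call of the 10 genes changed, and 7341 genes were called at 12 h and 7802 at 24 h, against 7147 and 7686 without it.

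Of the list counts, higher translocon genes between the times went from 7 to 4 with no filter, with only the groups compared, with no trend or without replicate 3 of 24 h, and at 24 h from 4 to 2 without replicate 1 of 24 h. Lower cytosolic and mitochondrial chaperones between the times went from 3 to 5 with median-ratio scaling or without replicate 1 of 24 h. The other counts that moved by over 1.5 times lay between 0 and 2. No scaling moved the median of all genes by over 0.1. The causes were not tested.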

Other observations

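Of the 24 tested genes outside the 10 with an exact ERSE or ERSE-II near their start, a pair not described above was chosen after its values were seen, since both genes fell at 12 h and were higher again at 24 h. FICD, the enzyme that attaches AMP to BiP, averaged 1.85 FPKM with Gln added, then 1.21 and 2.19 FPKM. On the log2 scale it was lower by -0.58 at 12 h, and 0.23 at 24 h did not pass. Between the times it was higher by 0.81. SERP1, which stabilizes membrane proteins at the translocon, was at 67.3, 49.4 and 59.7 FPKM, with log2 fold changes of -0.45 at 12 h and -0.18 at 24 h, of which the second did not pass. The difference between the times was 0.27.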
